A study of Mus musculus with 8 samples.

Results

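The matrix metalloproteinases (Mmp genes), the ADAMTS proteases (Adamts genes) and their tissue inhibitors (Timp genes) were followed in bulk RNA-seq of mouse prostate. Members were chosen by symbol, as Mmp or Adamts with a number and Timp1 to Timp4, which gave 46 of the 27036 genes in the count table: 23 Mmp, 19 Adamts and 4 Timp genes. The 8 libraries came from 3 WT control prostates and from transgenic Osr1-Cre mice with prostatic intraepithelial neoplasia (PIN, 3 libraries) or prostate cancer (PCa, 2 libraries). The study compared the 3 groups to follow the change from normal tissue to lesion to tumor. In the transgenic mice, a transgene at the Rosa26 locus is switched on by Cre in cells that have expressed Osr1, and in their descendants. Per the study the WT mice were R26 mTmG/+:Osr1 Cre/+ and matched for age and sex. All 3 groups thus carried the Cre allele and the membrane reporter, and the transgene was the allele that differed. The mice were on a mixed C57BL/6 and 129S1/SvImJ background and no treatment is named for these tissues. Osr1 is expressed in urogenital progenitors, before adult prostate cell types form, so the driver is not limited to 1 adult cell type. PIN and PCa tissues were picked under the microscope for a high content of atypical or tumor cells while the WT samples are labelled only as normal prostate. Ages of the animals behind these libraries and the number of animals per library are not given in the sources used here, so p-values measure the spread between libraries.

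Matrix metalloproteinases are zinc-dependent endopeptidases, made as inactive precursors, that cut collagens, laminins, elastin and many cell surface proteins. Most are secreted, while the membrane-type enzymes stay on the cell surface. ADAMTS proteases are secreted relatives with thrombospondin repeats that cut proteoglycans such as versican and aggrecan or process procollagen, and TIMPs bind the active site of these enzymes. In glandular epithelium such as that of the prostate, matrilysin (Mmp7) is the member known to be made by the epithelial cells themselves, whereas many other members are known from stroma, vessels and immune cells.

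Total counts were 21751803 to 29730420 in WT, 27421827 to 28517421 in PIN and 23527628 to 24457124 in PCa. Levels are CPM, read counts scaled to a common library total with TMM factors, or TPM, which also divides by exon length, where genes are compared with each other. The secretory product probasin (Pbsn), which marks mouse prostate epithelium, was at 6552 to 23968 CPM in WT and 6690 to 13097 CPM in PIN, but at 8.53 and 60.8 CPM in the PCa libraries. The luminal keratin Krt8 was at 453 and 333 CPM there. Some libraries stood apart in ways that touch the members. The summed level of 7 seminal vesicle genes was 15666 CPM in WT 1, under 1 CPM in WT 2 and WT 3, 43.9 to 88.7 CPM in PIN, and 3940 and 883 CPM in PCa. WT 1 also belongs to another series of library numbers than WT 2 and WT 3, and all PIN and PCa libraries to yet another. A comparison with WT could therefore not be recomputed within a number series.

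**Figure D1:**
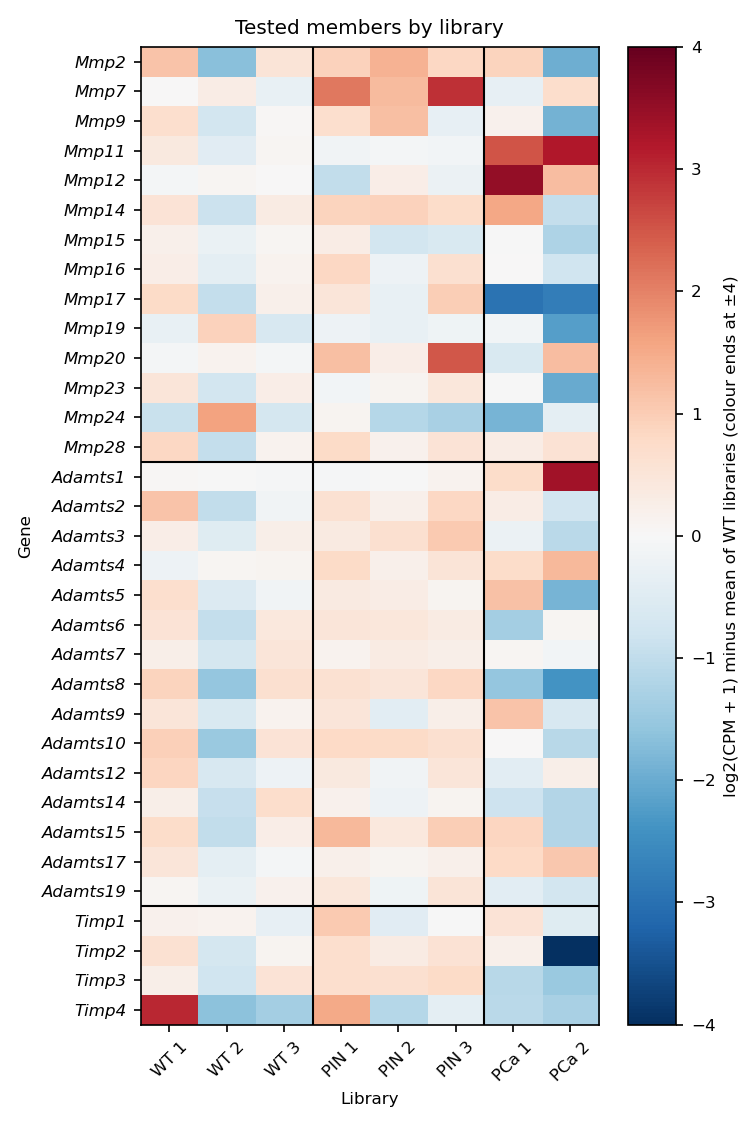
Level of each of the 33 tested members (vertical axis) in each library (horizontal axis), coloured as log2(CPM + 1) minus the mean of the 3 WT libraries, with colours ending at the limits of the bar. Mmp11 and Mmp12 are high and Mmp17 is low in both PCa libraries, Mmp7 is high in PIN, and PCa 2 is low for many members that are not low in PCa 1.

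Of the 46 members, 33 exceeded 1 CPM, computed for this filter on unscaled library totals, in 2 or more libraries and were tested (14 Mmp, 15 Adamts and 4 Timp genes). Of these, 31 would pass on WT and PIN libraries alone, the exceptions being Mmp11 and Adamts4. On that unscaled CPM, Mmp11 was at 1.43 in WT 1 and 0.975 in WT 3. A gene was called at an adjusted p below 0.05 and an absolute log2 fold change above 1 by edgeR (quasi-likelihood test, Benjamini-Hochberg adjusted over all 14034 tested genes). In PCa against WT, 4 of 33 members (12.1%) were called, against 8.54% of all tested genes. Mmp11, Mmp12 and Adamts1 were higher (4.35% of all genes were called higher) and Mmp17 was lower (4.18% were called lower). In PCa against PIN, 4 members (12.1%) were called against 5.72% of all genes, with Mmp11 and Mmp12 higher (2.55% of all genes) and Mmp17 and Timp3 lower (3.17% of all genes). The share of 12.1% in both comparisons includes Mmp11, which passed the filter only with the PCa libraries, where it was high. Its calls are therefore no support for a share above that of all genes. In PIN against WT edgeR called no member and 0% of all genes, with 492 genes at an unadjusted p under 0.05. DESeq2 called 39 genes in that comparison and limma-trend 0. Mmp7 was the 1 member with an unadjusted p under 0.05 in that comparison, and it was called by DESeq2 and not by limma-trend. DESeq2 also called Adamts4, Adamts8, Adamts14 and Timp3 in PCa against WT, and Mmp7, Adamts1 and Adamts8 in PCa against PIN. Over all genes DESeq2 called 2487 and 1984 in these comparisons. In a fit of WT and PCa libraries alone, none of the 4 members was called against WT (edgeR, adjusted p 0.0721 for Mmp17, 0.0764 for Mmp11, 0.107 for Mmp12 and 0.145 for Adamts1). That fit called 130 of all genes. The WT libraries are shared by both comparisons with WT, and the PCa libraries by both comparisons with PCa.

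Fold changes of the members were more often negative than positive in PCa. The median log2 fold change of the 33 tested members was -0.44 for PCa compared with WT and -1.02 for PCa compared with PIN, with medians over all tested genes of 0.01 and 0.07. It was 0.35 in PIN against WT, where all genes had -0.02. By sign, 20 of 33 members were below 0 in PCa against WT, and 26 against PIN. In PIN against WT 26 were above 0. Groups did not overlap for 9 members (27.3%) in PCa against WT, where 37.3% of all genes did not overlap. The number was 15 (45.5%) in PCa against PIN, against 44.3% of all genes, and 6 (18.2%) in PIN against WT against 12.9% of all genes. Those 6 include Mmp20 and Adamts4, which were below 1 CPM in every WT library and passed the filter through PIN and PCa libraries. Their place in this count depended on groups where they were high.

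The 2 PCa libraries differed from each other. In PCa 2, 18 of 33 members (54.5%) were below every WT and PIN library, against 31.8% of all genes. In that library 5 (15.2%) were above every one, against 27.9% of all genes. In PCa 1, 8 members (24.2%) were below and 7 (21.2%) above every WT and PIN library, with 27.5% and 27.8% of all genes. Among the controls, WT 2 was below WT 1, WT 3 and every PIN library for 24 members (72.7%), against 34.7% of all genes. Of the WT and PIN libraries, WT 2 also had the lowest sums of smooth muscle (2076 CPM), fibroblast (603 CPM) and endothelial (78.2 CPM) markers and the highest luminal sum (34654 CPM), and the part of cell content in its levels was not tested. Both PCa libraries were below all WT and PIN libraries for 4 members (12.1%), Mmp17, Timp3, Adamts8 and Adamts19, against 15.4% of all genes. Both were above all of them for another 4 (12.1%), Mmp11, Mmp12, Adamts1 and Adamts17, against 13.4% of all genes. These shares are near those of all genes. Adamts19 passed the filter through PIN 1 and PIN 3, where it was highest, and Mmp11 only with the PCa libraries, where it was highest.

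By level, Mmp7 dominated in every group. Its mean was 1427 ± 100.2 TPM in WT (SD, n = 3) and 7653 ± 3917 TPM in PIN (SD, n = 3), and it was at 1433 and 3093 TPM in the PCa libraries. Next in WT came Timp2 at 114 ± 58.3 TPM, the membrane-type Mmp15 at 112 ± 31.9 TPM, Timp3 at 64.4 ± 34.3 TPM and the membrane-type Mmp14 at 20.6 ± 11.2 TPM (SD, n = 3 each). The first 3 of these neighbours lay within their spread. In PIN the same 5 genes led, with Timp2 at 169 ± 19.1, Timp3 at 105 ± 0.826, Mmp15 at 102 ± 45.5 and Mmp14 at 38.0 ± 4.23 TPM (SD, n = 3 each). In PCa the aggrecanase Adamts1 was among the leading 5 by the mean of both libraries, at 15.4 TPM in PCa 1 and 103 TPM in PCa 2. That place rests on PCa 2, since in PCa 1 it lay below Mmp2 (33.1 TPM), Timp3 (33.0 TPM), Timp1 (19.8 TPM) and Mmp12 (17.7 TPM) as well.

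Summed over each family, Mmp genes were at 1527 to 1749 TPM in WT, 4241 to 12003 TPM in PIN and 1740 and 3212 TPM in PCa. Mmp7 made up 82.3 to 98.5% of these sums. Without Mmp7 the Mmp sum was 112 to 235 TPM in WT, 184 to 269 TPM in PIN and 307 and 119 TPM in PCa, so the ranges of the 3 groups overlapped. The Adamts sum was 12.7 to 45.8 TPM in WT, 38.6 to 44.8 TPM in PIN and 46.6 and 119 TPM in PCa, where Adamts1 accounted for 103 TPM of the latter. The Timp sum was 88.5 to 308 TPM in WT, 265 to 341 TPM in PIN and 206 and 41.3 TPM in PCa, below every PIN library in both tumors. The ratio of the full Mmp sum to the Timp sum was 5.67 to 17.7 in WT, 16.0 to 42.1 in PIN, 8.44 in PCa 1 and 77.7 in PCa 2. In that ratio PCa 1 lay within the WT range and below every PIN library. The ratio of the Mmp sum without Mmp7 to the Timp sum was 0.763 to 1.27 in WT, 0.646 to 0.787 in PIN, and 1.49 in PCa 1 and 2.88 in PCa 2, above all other libraries. These sums are transcript levels and carry no information on enzyme activity.

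**Figure D2:**
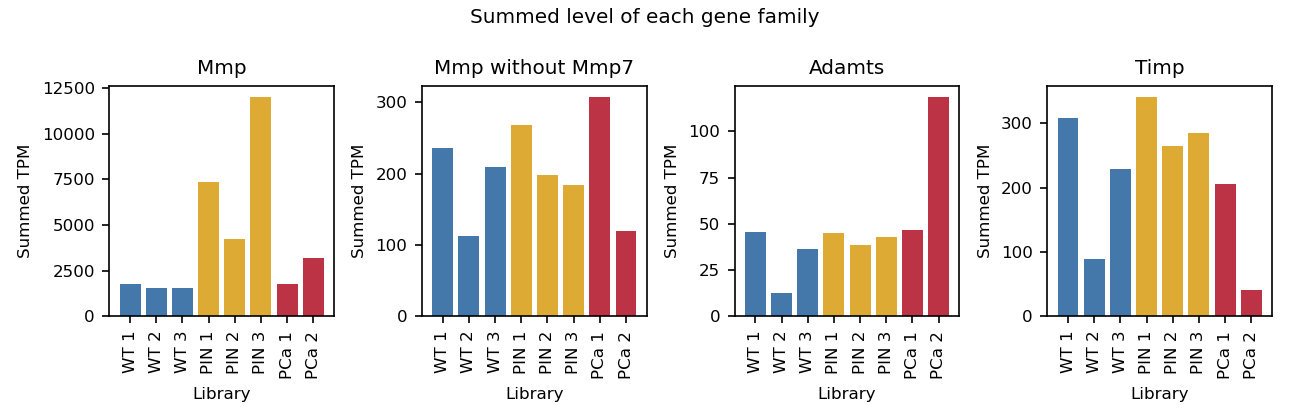
Summed TPM (vertical axes, linear from 0) of Mmp genes, Adamts genes and Timp genes in each library (horizontal axes, 1 bar per library, coloured by group). The Mmp sum is highest in the 3 PIN libraries (4241 to 12003 TPM), the Adamts sum is highest in PCa 2, and the Timp sum is lowest in PCa 2 (41.3 TPM).

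Mmp7 (mm9 chromosome 9, 7692086 to 7699585, plus strand), the matrilysin that cuts E-cadherin, Fas ligand and alpha-defensin precursors, was at 511, 623 and 417 CPM in WT 1 to 3, at 2210, 1238 and 3895 CPM in PIN 1 to 3, and at 403 and 836 CPM in PCa 1 and 2. Every PIN library lay above every WT and PCa library, and the WT and PCa ranges overlapped. In PIN against WT the log2 fold change was 2.24 (SE 0.50, a 4.74-fold difference) with an unadjusted p of 0.00231, but an adjusted p of 1 in edgeR's quasi-likelihood test and of 0.00199 in DESeq2. In PCa against PIN it was -1.98 (SE 0.58; edgeR, adjusted p = 0.0899), and in PCa against WT 0.26 (SE 0.53; edgeR, adjusted p = 0.789), which became -0.34 without PCa 2. Opposite to Mmp7 and overlapping it by 3546 bases lies AV064505, at 0.256 to 0.544 CPM in WT, 2.34 to 8.85 CPM in PIN and 0.676 and 1.17 CPM in PCa. The strand setting of the counting is not given.

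Mmp11, stromelysin-3 (mm9 chromosome 10, 75385967 to 75400678, minus strand), is activated by furin inside the cell and is known from stroma next to invasive epithelium. It was at 1.53, 0.408 and 1.06 CPM in WT 1 to 3, 0.756, 0.861 and 0.791 CPM in PIN 1 to 3, and 10.1 and 16.9 CPM in PCa 1 and 2. Both tumors lay above all 6 other libraries, and WT and PIN overlapped. The log2 fold change was 3.75 against WT (SE 0.58, 13.4-fold higher; edgeR, adjusted p = 0.0126) and 4.06 against PIN (SE 0.59, 16.7-fold higher; edgeR, adjusted p = 0.0151). Mmp11 passed the filter only with the PCa libraries, where it was high, so these calls are no support here. Without WT 3 the adjusted p against WT was 0.0562, and without PIN 1, PIN 2 or PIN 3 that against PIN was 0.0647, 0.0629 and 0.0793. The log2 fold change stayed between 3.34 and 4.40 whichever library was left out. The gene Chchd10 lies inside Mmp11 on the other strand, at 17.8 to 29.5 CPM in WT, 10.1 to 12.5 CPM in PIN and 31.9 and 28.8 CPM in PCa. In bulk tissue, a change in the number of cells of a type and a change in RNA per cell cannot be told apart for any of these genes. The summed level of 10 fibroblast markers was 603 to 1120 CPM in WT, 894 to 1083 CPM in PIN, and 807 and 302 CPM in PCa. Of the 10, edgeR called 1 lower in both comparisons with PCa and 0 higher, and their median log2 fold change was -0.67 against WT and -0.88 against PIN. The called marker was Postn, at 43.6 to 65.5 CPM in WT, 43.6 to 101 CPM in PIN, and 17.9 and 10.8 CPM in PCa, while Fap, uncalled, was at 0.408 to 0.915, 0.753 to 1.19, and 1.26 and 1.71 CPM. The part of fibroblasts in the Mmp11 difference was not tested.

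Mmp12, macrophage elastase (mm9 chromosome 9, 7344381 to 7369499, plus strand), was at 1.88, 2.22 and 2.05 CPM in WT 1 to 3, 0.540, 2.65 and 1.58 CPM in PIN 1 to 3, and 33.5 and 6.24 CPM in PCa 1 and 2. Both PCa libraries were above every other library, and PCa 1 was far above PCa 2. The log2 fold change was 3.27 in PCa against WT (SE 0.81, 9.67-fold higher; edgeR, adjusted p = 0.0468) and 3.64 in PCa against PIN (SE 0.82, 12.4-fold higher; edgeR, adjusted p = 0.0455). The call was close to the threshold. With upper-quartile scaling the adjusted p in edgeR was 0.0508 and 0.0533. The call was missed in both comparisons when any 1 library other than PCa 2 was left out. Without PCa 1 the log2 fold change was 1.61 against WT (edgeR, adjusted p = 0.175). The summed level of 10 macrophage markers was 93.8 to 240 CPM in WT, 130 to 254 CPM in PIN, 619 CPM in PCa 1 and 47.0 CPM in PCa 2. No marker of the list was at 0 in any library. In PCa 1 both Mmp12 and the macrophage sum were the highest of all libraries, and in PCa 2 Mmp12 was above and the macrophage sum below all WT and PIN libraries. The part of macrophages in the Mmp12 difference was not tested.

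Mmp17 (mm9 chromosome 5, 130090089 to 130114086, plus strand), a membrane-type enzyme held by a glycolipid anchor and known from the smooth muscle of vessel walls, had the largest fold change of any called member. It was at 14.7, 3.85 and 9.63 CPM in WT 1 to 3, 11.9, 6.58 and 17.3 CPM in PIN 1 to 3, and 0.193 and 0.377 CPM in PCa 1 and 2. The tumors lay far below all other libraries, and WT and PIN overlapped. Mmp17 fell by 5.02 on the log2 scale in PCa against WT (SE 0.82; edgeR, adjusted p = 0.0145), a call that held whichever library was left out (edgeR, adjusted p 0.0162 to 0.0487) but was missed when WT and PCa were fitted alone (edgeR, adjusted p = 0.0721). It fell by 5.37 in PCa against PIN (SE 0.83; edgeR, adjusted p = 0.0179), a call missed without PIN 1 (0.0537) or PIN 3 (0.0678). Smooth muscle markers moved with it. Their summed level over 8 genes was 2076 to 5005 CPM in WT, 3283 to 6003 CPM in PIN, and 60.0 and 38.8 CPM in PCa, and 7 of 8 were called lower in both comparisons with PCa. The smooth muscle myosin Myh11 was at 680 to 2054 CPM in WT and at 7.24 and 5.04 CPM in PCa. The part of smooth muscle content in the Mmp17 difference was not tested.

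**Figure D3:**
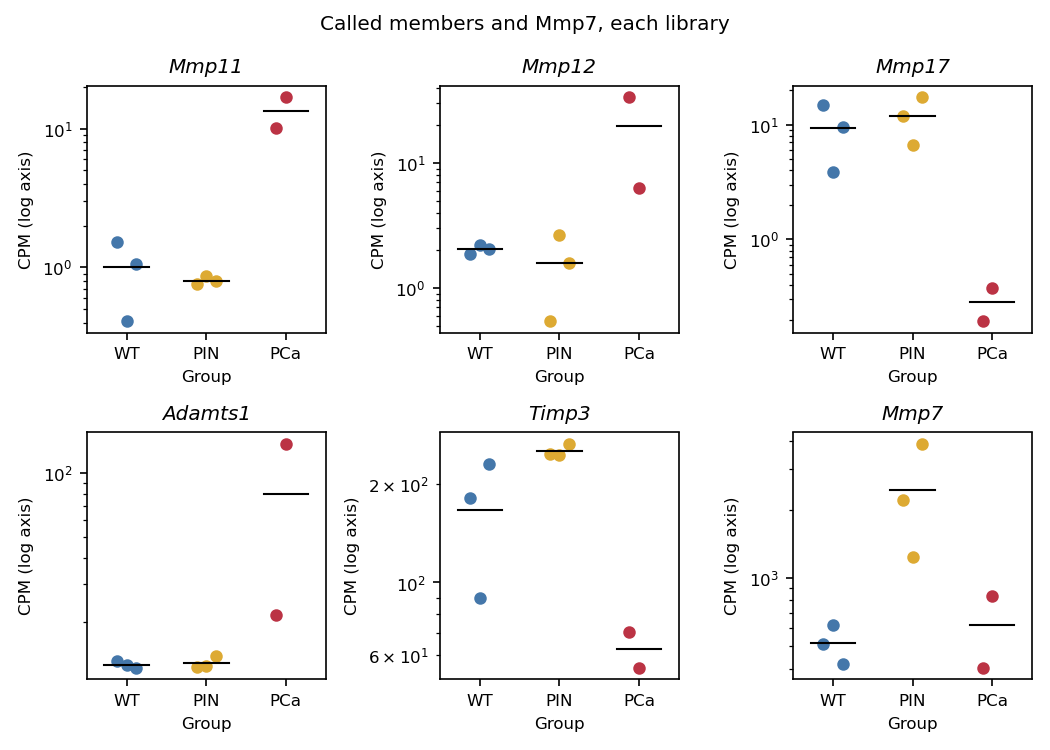
CPM on log axes of the 5 members called in any comparison and of Mmp7, by group (horizontal axes), with 1 point per library and a line at the group mean. Mmp11, Mmp12 and Adamts1 lie higher in both PCa libraries than in all 6 others, Mmp17 and Timp3 lie lower, and Mmp7 is higher in the 3 PIN libraries (1238 to 3895 CPM).

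The gelatinases, which cut denatured collagen and basement membrane collagen, were not called. Mmp2 was at 31.9, 3.67 and 20.2 CPM in WT, 27.4, 37.6 and 25.5 CPM in PIN, and 26.4 and 2.81 CPM in PCa. Mmp9 was at 6.62, 1.86 and 3.95 CPM in WT, 6.62, 9.88 and 2.79 CPM in PIN, and 4.34 and 0.274 CPM in PCa. For both genes PCa 1 lay within the WT range and PCa 2 below every other library. The log2 fold change in PCa against WT was -0.35 for Mmp2 (SE 1.00; edgeR, adjusted p = 0.853) and -0.84 for Mmp9 (SE 1.07; edgeR, adjusted p = 0.655), and without PCa 2 these were 0.52 and 0.08.

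Among the membrane-type enzymes, Mmp14, a collagenase of the cell surface that activates the Mmp2 precursor together with Timp2, was at 23.3, 8.07 and 19.6 CPM in WT, 29.9, 30.6 and 26.5 CPM in PIN, and 47.5 and 7.61 CPM in PCa. PIN lay above WT without overlap, by 0.77 on the log2 scale (SE 0.64; edgeR, adjusted p = 1). The tumors lay on either side of all others, with 0.70 against WT (SE 0.70; edgeR, adjusted p = 0.566) that became -1.15 without PCa 1. Mmp15 was at 131 to 180 CPM in WT, 93.5 to 196 CPM in PIN and 155 and 66.6 CPM in PCa (log2 fold change -0.52 against WT, SE 0.45; edgeR, adjusted p = 0.496), with -1.24 without PCa 1 and -0.02 without PCa 2. The enamel protease Mmp20 was at 0.586 to 0.861 CPM in WT, 2.84, 0.999 and 8.36 CPM in PIN, and 0.0965 and 2.91 CPM in PCa. PIN lay above WT, and PIN and PCa overlapped. Mmp20 was below 1 CPM in every WT library and passed the filter through PIN and PCa libraries. It also overlaps AV064505 on the opposite strand, by 5540 bases.

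Collagenases and the other stromelysins were rare transcripts. Of the 9 Mmp genes under the filter, Mmp1a and Mmp1b had 0 counts in all 8 libraries, and Mmp10, Mmp21 and Mmp27 reached at most 0.225 CPM. The neutrophil collagenase Mmp8 was at 0 to 0.0753 CPM in WT and PIN, 0.772 CPM in PCa 1 and 0.0343 CPM in PCa 2. Collagenase-3, Mmp13, was at 0.0753 to 0.964 CPM in WT and PIN, 1.67 CPM in PCa 1 and 0.206 CPM in PCa 2. Stromelysin-1, Mmp3, was at 0.0989 to 0.586 CPM in WT and PIN, 4.60 CPM in PCa 1 and 0.240 CPM in PCa 2. For these 3 genes PCa 1 was above all other libraries and PCa 2 within the range of WT and PIN, which leaves 1 library with no replicate check. Mmp25, a leukocyte membrane-type enzyme, was at 1.16 CPM in PCa 1 and 0.0366 to 0.936 CPM elsewhere. Neutrophil markers were raised in the same library, with a 10-gene sum of 1492 CPM in PCa 1, 7.51 CPM in PCa 2 and 0.680 to 12.1 CPM in WT and PIN. Most of it was the lactoferrin gene Ltf, which glandular epithelium also makes. Without Ltf the sum was 111 CPM in PCa 1, 7.03 CPM in PCa 2 and 0.317 to 1.52 CPM in the others. The 10 genes split in PCa 1. S100a9 had 1631 counts there (0 to 6 in WT and PIN), S100a8 1133 (0 to 2), Csf3r 606 (4 to 41) and Retnlg 45 (0 to 3). S100a8 passed the filter through the PCa libraries alone, so its call is no support here. Mpo had 18 counts in PCa 1, Ly6g 2, Ngp 1, and Elane and Camp 0. The part of neutrophils in these levels was not tested.

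The chromosome 9 group holds 10 of these genes side by side, in the order Mmp13, Mmp12, Mmp1b, Mmp3, Mmp1a, Mmp10, Mmp8, Mmp27, Mmp20 and Mmp7, over 427.1 kb of mm9 (chromosome 9, 7272514 to 7699585). Levels across the group ran from 0 counts for Mmp1a and Mmp1b to 3895 CPM for Mmp7 in PIN 3, and the genes did not share 1 pattern over libraries. Mmp12, Mmp3, Mmp8, Mmp13 and Mmp27 had their highest value in PCa 1, whereas Mmp7 and Mmp20, next to each other at one end, had theirs in PIN 3. AP-1, the Fos and Jun dimer, is a known regulator of several Mmp promoters. Windows of 250 bases before each RefSeq start (GRCm38.p6) were searched for TGANTCA, a palindrome that gives the same matches on both strands. It was found for 8 of the 10 genes, all but Mmp8 and Mmp27, and for 0 of the other 22 members with a promoter entry. Of all 27025 genes with an entry, 7.82% hold it in windows of that length. A match describes letters and is not a shown binding site. The 100 bases before the start are printed for the most abundant gene, the called gene (at the second of its listed starts) and the 3 genes high in PCa 1, 5′ to 3′ with mm9 coordinates at which each matches the genome once and with TGANTCA matches in capitals.
Mmp7 (chr9:7691990-7692089, plus strand): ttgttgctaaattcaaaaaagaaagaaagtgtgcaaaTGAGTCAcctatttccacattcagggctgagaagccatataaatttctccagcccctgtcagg
Mmp12 (chr9:7347274-7347373, plus strand): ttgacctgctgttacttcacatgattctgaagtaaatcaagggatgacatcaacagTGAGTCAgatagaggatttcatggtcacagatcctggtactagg
Mmp3 (chr9:7445722-7445821, plus strand): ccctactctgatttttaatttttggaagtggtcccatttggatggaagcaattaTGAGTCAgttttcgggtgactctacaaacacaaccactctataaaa
Mmp13 (chr9:7272414-7272513, plus strand): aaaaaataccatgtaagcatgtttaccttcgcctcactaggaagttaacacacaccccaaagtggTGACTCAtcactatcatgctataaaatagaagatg
Mmp8 (chr9:7558329-7558428, plus strand): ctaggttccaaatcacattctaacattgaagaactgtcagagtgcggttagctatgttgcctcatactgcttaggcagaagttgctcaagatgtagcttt
At the starts shown, Mmp7, Mmp12, Mmp3 and Mmp13 each have TGANTCA within 63 bases, and Mmp7 was highest in a PIN library and the other 3 in PCa 1. Mmp12 and Mmp7 each have another listed start. The upstream start of Mmp12, near the start of the gene model in mm9, has no match in its 250 bases, nor has the downstream start of Mmp7. The Mmp8 window, with no match, belongs to a gene that was highest in PCa 1 like Mmp3 and Mmp13. The TCF letters ATCAAAG or TTCAAAG, on either strand, were found before the start for 2 of 32 members, Mmp7 and Mmp21, against 8.63% of all genes with an entry. No promoter entry was used for 14 members: Mmp2, Mmp9, Mmp16, Mmp17, Mmp19, Adamts4, Adamts5, Adamts6, Adamts7, Adamts8, Adamts10, Adamts15, Adamts16 and Adamts19.

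**Figure D4:**
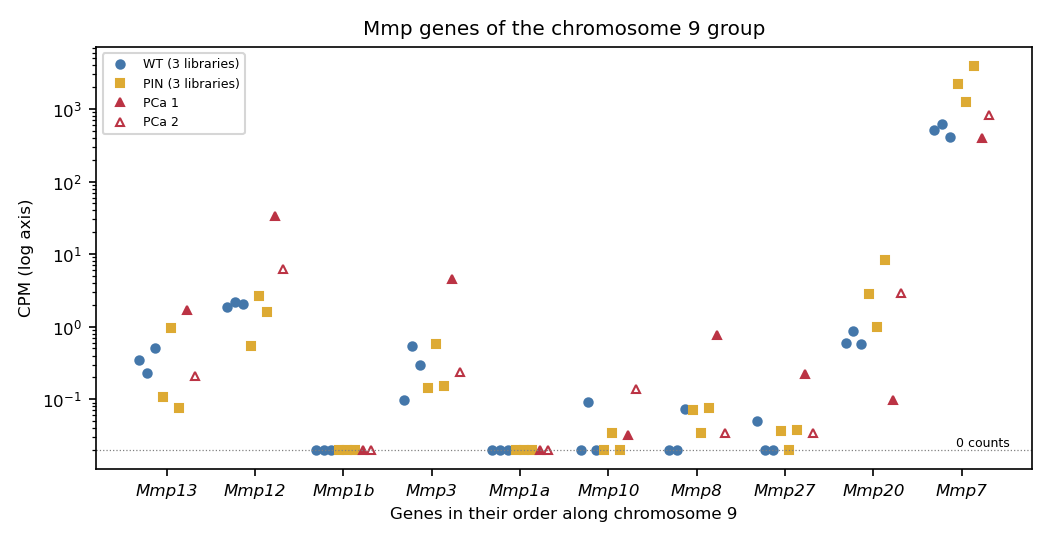
CPM (log vertical axis) of the 10 Mmp genes of the chromosome 9 group in their order along the chromosome (horizontal axis, not to scale), with 1 point per library, coloured by group, and libraries with 0 counts on the dotted line. Mmp12, Mmp3 and Mmp8 are highest in PCa 1, and Mmp20 and Mmp7 are highest in PIN 3.

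Adamts1 (mm9 chromosome 16, 85794072 to 85803358, minus strand), which cuts versican and aggrecan and is known as an inhibitor of angiogenesis, was the 1 ADAMTS gene called. It was at 13.1, 12.5 and 12.1 CPM in WT 1 to 3, 12.2, 12.3 and 13.8 CPM in PIN 1 to 3, and 21.5 and 138 CPM in PCa 1 and 2. WT and PIN were tightly grouped, and both tumors lay above them, PCa 2 far more than PCa 1. The log2 fold change was 2.67 in PCa against WT (SE 0.62, 6.35-fold higher; edgeR, adjusted p = 0.0407) and 2.64 in PCa against PIN (SE 0.62, 6.23-fold; edgeR, adjusted p = 0.0511), which missed the threshold. The call against WT was missed when any 1 library other than PCa 1 was left out, and without PCa 2 the log2 fold change was 0.79 (edgeR, adjusted p = 0.0928). The endothelial sum over 8 markers was 78.2 to 154 CPM in WT, 116 to 154 CPM in PIN, and 139 and 181 CPM in PCa. Its members did not move as 1. Emcn was called lower against WT (log2 fold change -1.85, SE 0.42; edgeR, adjusted p = 0.0371), at 21.7 to 54.2 CPM in WT and 9.20 and 11.1 CPM in PCa, while Vwf and Pecam1, uncalled, had log2 fold changes of 1.68 and 1.41. The part of endothelial cells in the Adamts1 difference was not tested.

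The other 14 tested Adamts genes were not called by edgeR. DESeq2 called Adamts4, Adamts8 and Adamts14 in PCa against WT and Adamts8 in PCa against PIN. Adamts4, another aggrecanase, was at 0.148 to 0.439 CPM in WT, 0.517 to 1.26 CPM in PIN, and 1.19 and 2.26 CPM in PCa, without overlap between PCa and WT (log2 fold change 2.35, SE 0.71; edgeR, adjusted p = 0.0799). Like Mmp11, Adamts4 passed the filter only with the PCa libraries, where it was high. Its call by DESeq2 and the lack of overlap are therefore no support here. Adamts17 was at 1.68 to 3.95 CPM in WT, 2.79 to 3.09 CPM in PIN, and 5.12 and 6.45 CPM in PCa. Adamts8, an ADAMTS with reported anti-angiogenic activity, was at 9.49, 0.952 and 7.87 CPM in WT, 6.92 to 9.15 CPM in PIN, and 0.933 and 0.0686 CPM in PCa (log2 fold change -3.59 against WT, SE 1.24; edgeR, adjusted p = 0.110). WT 2 was nearly as low as PCa 1 for this gene. Adamts5, the main cartilage aggrecanase, split the tumors, at 19.9 CPM in PCa 1 and 1.51 CPM in PCa 2, above and below the 5.35 to 13.7 CPM of WT and PIN. The genes that process procollagen were not called by edgeR, and DESeq2 called Adamts14 against WT. Adamts2 was at 3.22 to 17.3 CPM in WT and PIN and at 9.33 and 3.91 CPM in PCa. Adamts3 was at 0.544 to 3.54 CPM in WT and PIN and at 0.869 and 0.0343 CPM in PCa. Adamts14 was at 0.272 to 2.89 CPM in WT and PIN and at 0.354 and 0.0686 CPM in PCa, and for Adamts3 and Adamts14 both tumors lay below every PIN library. Under the filter were Adamts13, which cuts von Willebrand factor, Adamts16, Adamts18 and Adamts20, which reached at most 0.603 CPM in any library.

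Among the inhibitors, Timp3 (mm9 chromosome 10, 85763117 to 85812251, plus strand), which is bound to the matrix and inhibits ADAMTS and ADAM proteases as well as MMPs, was at 181, 89.6 and 229 CPM in WT 1 to 3, 246, 244 and 264 CPM in PIN 1 to 3, and 70.5 and 55.0 CPM in PCa 1 and 2. The tumors were lowest, the PIN libraries highest, and no groups overlapped. Timp3 fell by 2.00 on the log2 scale in PCa against PIN (SE 0.40, 4.01-fold; edgeR, adjusted p = 0.0334), and the log2 fold change was -1.41 in PCa against WT (SE 0.39; edgeR, adjusted p = 0.0627) and 0.60 in PIN against WT (SE 0.33; edgeR, adjusted p = 1). The PCa against PIN call was missed without WT 1, PCa 2 or any 1 PIN library (edgeR, adjusted p 0.0545 to 0.122), with the log2 fold change between -2.18 and -1.81. Timp3 lies within Syn3 on the opposite strand, which was at 0.901 to 4.18 CPM.

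Timp2, the inhibitor that also takes part in Mmp2 activation, was at 205, 80.7 and 143 CPM in WT, 214, 168 and 198 CPM in PIN, and 155 and 5.76 CPM in PCa. PCa 1 lay within the WT range, and PCa 2 was far below every other library. For Timp2 the log2 fold change was -0.83 against WT (SE 1.04; edgeR, adjusted p = 0.647) and -1.27 against PIN (SE 1.05; edgeR, adjusted p = 0.523). With PCa 2 alone as the tumor, the log2 fold change of Timp2 against WT was -4.62, and with PCa 1 alone the value was 0.13. Against PIN it was -5.05 with PCa 2 alone and -0.30 with PCa 1 alone. A lone tumor library holds no spread between tumors, so only these fold changes are given. Timp1, the inducible inhibitor, was at 2.05 to 3.31 CPM in WT, 1.83 to 6.91 CPM in PIN, and 4.60 and 1.71 CPM in PCa (log2 fold change 0.14 against WT, SE 0.69; edgeR, adjusted p = 0.924). Timp4 was at 26.4 CPM in WT 1, 0.0906 CPM in WT 2 and 0.329 CPM in WT 3, at 8.71, 0.551 and 1.62 CPM in PIN, and at 0.611 and 0.377 CPM in PCa. Its log2 fold change of -4.16 against WT (SE 2.38; edgeR, adjusted p = 0.302) became 1.20 without WT 1, the library with the highest seminal vesicle sum. Whether seminal vesicle tissue carried Timp4 was not tested.

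Other genes of the pathway were counted beside the 8.54%, 5.72% and 0% of all tested genes called in PCa against WT, PCa against PIN and PIN against WT. At an unadjusted p under 0.05 there were 3866, 3205 and 492 of the 14034 tested genes in these comparisons. DESeq2 called 2487, 1984 and 39 of all genes and limma-trend 1323, 1001 and 0. No list is read here as differing from all genes. Of 18 tested regulators and activators of MMPs, 0 were called by edgeR in any comparison, with 4 at an unadjusted p under 0.05 in PCa against WT, 4 in PCa against PIN and 1 in PIN against WT. DESeq2 called 4, 4 and 0 of them and limma-trend 1, 0 and 0. Among them the membrane-anchored inhibitor Reck was at 4.58 to 16.4 CPM in WT, 15.3 to 20.2 CPM in PIN, and 4.51 and 0.583 CPM in PCa (log2 fold change -2.23 against WT, SE 0.87; edgeR, adjusted p = 0.149). Cd44, a docking receptor for Mmp9 and Mmp7, was at 13.1 to 23.3 CPM in WT, 12.1 to 47.6 CPM in PIN, and 78.8 and 93.4 CPM in PCa (log2 fold change 2.26 against WT, SE 0.58; edgeR, adjusted p = 0.0533). Furin, the convertase that activates Mmp11 and Mmp14, was at 123 to 156 CPM in WT and 119 and 113 CPM in PCa. Of 11 ADAM proteases, the sheddase Adam9 was called lower in PCa against WT, with a log2 fold change of -1.04 (SE 0.26; edgeR, adjusted p = 0.0465). It was at 201 to 294 CPM in WT and 131 and 123 CPM in PCa. Of the ADAM genes edgeR called 0 in PCa against PIN (2 at an unadjusted p under 0.05, 1 by DESeq2, 0 by limma-trend) and 0 in PIN against WT (0 by each of these). The 4 tested ADAMTS-like genes and the 19 tested matrix substrates had 0 calls each by edgeR and limma-trend in all 3 comparisons. At an unadjusted p under 0.05 there were 1, 2 and 0 ADAMTS-like genes and 3, 3 and 0 substrates in PCa against WT, PCa against PIN and PIN against WT, and DESeq2 called 1, 1 and 0, and 3, 3 and 0. The median log2 fold change of the substrates was -0.92 in PCa against WT, -1.07 in PCa against PIN and 0.30 in PIN against WT, beside -0.44, -1.02 and 0.35 for the members.

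Basal epithelial markers summed to 179 to 243 CPM in WT, 181 to 397 CPM in PIN, and 615 and 62.5 CPM in PCa, and PCa 2 was below all others. Luminal markers summed to 11259 to 34654 CPM in WT, 12972 to 19675 CPM in PIN, and 4609 and 3609 CPM in PCa, with Pbsn called lower in both comparisons with PCa. Without Pbsn the other 7 luminal markers summed to 4707 to 10686 CPM in WT, 6172 to 6578 CPM in PIN, and 4600 and 3548 CPM in PCa, so PCa 1 was close to WT 1. The part of epithelial content in the members' levels was not tested.

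**Figure D5:**
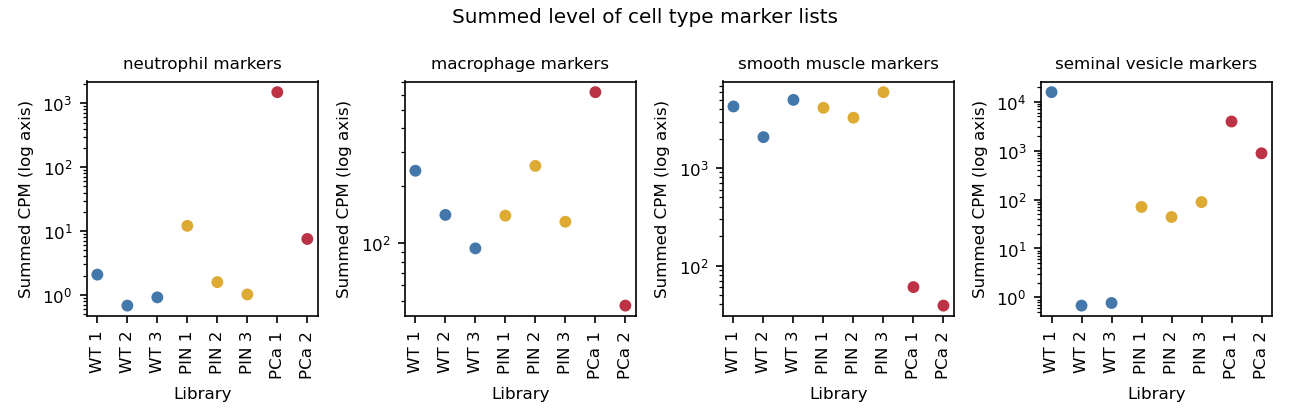
Summed CPM (log vertical axes) of cell type marker lists in each library (horizontal axes, coloured by group). Smooth muscle sums are lowest in both PCa libraries (60.0 and 38.8 CPM), macrophage and neutrophil sums are highest in PCa 1, and the seminal vesicle sum is highest in WT 1.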

How the data were processed

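RNA of 3 WT, 3 PIN and 2 PCa prostate tissues was sequenced after ribosomal RNA removal. The authors trimmed reads with cutadapt 1.9.1, aligned them to mm9 with HISAT2 2.1.0 and counted them with HTSeq 0.6.1, per the labels and the study's methods, and deposited raw counts per gene. The strand setting is not given in the sources used here. The deposited table also holds summed exon length, another kind of value, used for TPM. Total counts limit the precision of rare genes, and 2 PCa libraries limit every comparison with PCa.

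In R 4.3.3, edgeR 4.0.16 (TMM, quasi-likelihood F-test) was fitted to the counts of all 8 libraries with 3 groups (5 residual degrees of freedom), after keeping genes above 1 CPM in at least 2 libraries, as in the study's methods, and p-values were adjusted by the Benjamini-Hochberg method. The common biological coefficient of variation was 0.489. Each standard error is the absolute log2 fold change divided by the square root of F. On simulated data for PCa against WT, 200 of 200 genes changed 4-fold were called at a coefficient of 0.2 (13969 genes) and 104 of 200 at 0.4 (14134 genes). False calls numbered 1 and 4. Both simulated coefficients were below the 0.489 of these data, so the simulation does not give the recovery reached here. Alternatives were upper-quartile scaling, DESeq2 1.42.0, limma-trend 3.58.1 with a prior count of 2, other low-count filters, a fit of the compared groups alone, no fold change limit, a replicate block and leaving out each library. The replicate numbers mark different tissues and were not taken as pairs in the main fit. Correlations of deviations ran from -0.039 to 0.265 for the 7 same-numbered pairs (mean 0.083). For the 14 other pairs they ran from -0.265 to 0.168 (mean -0.042). Deviations of the 2 PCa libraries mirror each other, so these values are not independent and cannot decide on pairing.

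Members and lists were chosen with earlier results of these data known. Named with values or ranges were called members, Timp genes, the leading 5 by TPM in each group, and set gelatinases, collagenases, stromelysins, Mmp7 and Mmp14. Other members named were chosen after their values were seen. Emr1 stands for Adgre1. Gene coordinates are of mm9, and promoter windows come from RefSeq. The identity of the transgene is not reported here.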

Additional observations from a re-analysis of the deposited data

How the results depend on the processing

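In PCa against WT, where 4 members were called, DESeq2 called 8, limma-trend 2 (Mmp11, Mmp17), the replicate block 1 (Mmp17), and a fit of the 2 groups alone 0, with adjusted p of 0.0764 for Mmp11 and 0.0721 for Mmp17. Leaving out 1 library gave 1 to 11, with 1 without WT 3 and 11 without PCa 1, 3 of them among the 4. In PCa against PIN, also with 4, DESeq2 called 7 and the replicate block 0 (adjusted p 0.058 for Mmp17, 0.0634 for Mmp11 and 0.0694 for Timp3), and leaving out 1 library gave 0 to 12, with 0 without PIN 1 or PIN 3, 1 without PIN 2, 2 without WT 1 and 12 without PCa 1. In PIN against WT DESeq2 called 1 (Mmp7) and every other setting 0. Upper-quartile scaling ended the Mmp12 calls. The cause of these differences was not tested. A lone PCa library is assumed to vary like the other groups.

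For PCa against WT, leaving out 1 library gave log2 fold changes of -2.72 to 0.52 for Mmp2 (0.29 without WT 1), -0.34 to 0.71 for Mmp7, -3.88 to 0.08 for Mmp9, -1.15 to 1.50 for Mmp14, -0.73 to 0.70 for Timp1 (-0.06 without WT 3), -4.62 to 0.13 for Timp2 and -4.74 to 1.20 for Timp4. With the replicate block, Timp1 was at -0.25.

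The log2 ratio of summed Mmp TPM was 0.62 in PCa against WT, -1.67 in PCa against PIN and 2.29 in PIN against WT. The median log2(CPM + 1) difference of tested Mmp genes, which does not weight Mmp7, was -0.46, -0.87 and 0.40. For Adamts the ratio was 1.39 against WT and 0.97 against PIN, the median difference -0.23 and -0.77, and without 1 library the ratio ran from 0.56 to 1.91 and from 0.14 to 1.49, lowest without PCa 2. For Timp it was -0.75 and -1.26, and ran from -2.33 to -0.02 and from -2.85 to -0.53, lowest without PCa 1.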
